A study of Mus musculus with 4 samples.

Results

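The cytosolic ribosomal proteins are the protein part of the ribosomes that translate nuclear-encoded messages, and their mRNAs were followed here in mouse alveolar epithelial type II (AT2) cells, which produce the lung's surfactant. Rows of the deposited gene table were taken if their symbol had the form of a large-subunit (Rpl, Rplp) or small-subunit (Rps, Rpsa) protein; ribosomal S6 kinases and Rps19bp1 were left out. This gave 87 of 22565 rows, 52 for the large and 35 for the small subunit. The design compares libraries labelled KO with libraries labelled WT, 2 of each, all from AT2 cells that were sorted by flow cytometry from untreated mice 6 months old. The growth protocol names an Fbxo45 conditional knockout; the sources used here name neither the Cre driver nor the deleted part of the gene. The genotype field reads Fbxo45 for KO-labelled library 1 and Fbxo46 for KO-labelled library 2, although both titles read KO. No label says whether replicate libraries stem from different mice, so p-values reflect only how far these 4 libraries vary, and that variation may be technical.

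A ribosome holds most of its proteins in equal numbers (the stalk proteins Rplp1 and Rplp2, which form dimers, are an exception), and cells make them together. Their mRNAs begin with a run of pyrimidines (the 5′ terminal oligopyrimidine, or TOP, sequence) through which mTOR signalling sets how well they are translated. Unassembled Rpl5 and Rpl11, bound to 5S ribosomal RNA, are known to inhibit Mdm2 and so to stabilise p53. In the alveolus, AT2 cells use this machinery to make large amounts of surfactant proteins.

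The start regions of members that the results below turn on are shown first, as 30 bases of RefSeq sequence (GRCm38.p6) read 5′ to 3′ on the gene's strand. Capitals mark the longest unbroken run of C and T within 20 bases before to 30 bases after the annotated start; where RefSeq lists several starts, the start with the longest run is shown. Rps26, Rps2 and Rpsa were low in both KO-labelled libraries. Rps24, Rpl28 and Rpl36al were high in KO-labelled library 1 and low in KO-labelled library 2. Rpl11 and Rpl7a have some of the longest runs. The windows lie, in the order of the lines, at chr10:128626482-128626511 (minus strand), chr17:24720059-24720088 (plus), chr9:120127778-120127807 (plus), chr14:24490667-24490696 (plus), chr7:4792954-4792983 (plus), chr12:69184059-69184088 (minus), chr4:136053359-136053388 (minus) and chr2:26910785-26910814 (plus).
Rps26: ccgccggaTCCTCTTTCgagtcttggctcc
Rps2: atctcgcgCTTCTTggagcactataaattg
Rpsa: gccgcccgTCCTTTCgcgctacccggggac
Rps24: cgctggggTCCTTCCTTgcgcgttgatatg
Rpl28: ctctcgtgTCTCTCTTTCCgtctccggccg
Rpl36al: ggttcgcaTTCCCgtcgctcaggttcagtt
Rpl11: gccggaagTCTCCCTCTCTCTTCCTgttct
Rpl7a: ccccacaaTTCCCTCTTCTTTCTTTCTCCa

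RefSeq promoters were matched for 64 of the 87 members, with 76 promoters among them. A C/T run of at least 8 bases was found in 46.1% of these promoters, against 19% of all 32851 promoters searched the same way. The sequence CCGGAAG, on either strand, was in 35.5% of member promoters and 8.86% of all, and GGGCGG was in 60.5% and 35.7%. AAGATGGC was in 10.5% and 2.75%, and TATAAA in 9.21% and 13.6%. These motifs were searched in the whole RefSeq window, from 250 bases before to 50 bases after the start. A match is a description of the letters only.

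Depth was 9507434 and 7066424 fragments in KO-labelled libraries 1 and 2, against 4167117 and 8200180 in the WT libraries, so a count of 0 (an upper limit of 3 fragments) allows 0.3155 and 0.4245 CPM against 0.7199 and 0.3658 CPM (CPM, fragments per 1000000 fragments of the library; these limits and all intervals cover counting error only). Fbxo45 stood at 22.4 and 35.6 CPM in the KO-labelled libraries and 22.2 and 28.9 CPM in WT, and Fbxo46 at 13.6 and 14.9 CPM against 13.8 and 12.9 CPM. By CPM neither target was lower in the library labelled as its knockout than in both WT libraries; by FPKM, Fbxo45 stood at 4.41 in KO-labelled library 1, against 4.604 and 5.906 in WT, and Fbxo46 at 4.80 in KO-labelled library 2, against 4.13 and 3.79 in WT. Whether the reads fall in the deleted part is not known, so the groups are called by their labels throughout and every direction below rests on those labels. The AT2 marker Sftpc, encoding surfactant protein C, held 47510 and 62380 CPM against 75460 and 72390 CPM. It is 1 of 10 AT2 cell markers listed, of which 7 had a log2 difference below 0 and 3 above (median -0.11). Only 3 of the 10 lay below both WT libraries in both KO-labelled libraries. A list of 12 fast skeletal muscle genes summed to 1734.5 and 9.2 CPM against 0.48 and 9.76 CPM, so KO-labelled library 1 stands apart from the other libraries in muscle transcripts. T cell markers were at 0 in all 4 libraries. Of 8 AT1 cell markers, 6 had a log2 difference below 0 (median -0.38), although their summed FPKM was 972.4 and 629.9 in the KO-labelled libraries and 766.5 and 634.3 in WT. The sum of 8 fibroblast markers was 77.5 and 78.1 FPKM against 73.5 and 27.7 FPKM. Of 5 macrophage markers 3 were at 0 in every library, and Cd68, the only one tested, stood at 19.04 and 7.85 CPM against 9.29 and 9.35 CPM. The part of these cell types in the members' levels was not tested.

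The names of some rows needed checking. The row named Rpl24 carries the identifier of Zbtb11 in GENCODE M21, and the identifier of Rpl24 itself belongs to a row written in capitals, RPL24, which the symbol pattern does not match. Rps4y2 is annotated there as Rps4l, and Rps3a2, Rps3a3 and Rps4y2 have no coding sequence annotated there. Fau, whose product is processed to a ribosomal protein, and Gnb2l1 (Rack1), a small-subunit protein, have symbols of another form and are given with the other pathway genes. Of the 87 members, 84 reached a mean of 1 CPM and were tested. Rpl10l and Rpl39l, paralogues known from testis, had 0 fragments in every library, and Rps4y2 had 1 or 2.

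Ribosomal protein mRNAs together differed more between the KO-labelled libraries than between the groups. They took 13476 CPM in KO-labelled library 1 (exact 95% binomial interval 13403 to 13550) and 9366.5 CPM in KO-labelled library 2 (9295.7 to 9437.8). The WT libraries held 10480 CPM (10382 to 10578) and 11064 CPM (10992 to 11136). As shares of all fragments these are 1.35% and 0.937%, against 1.05% and 1.11%. KO-labelled library 1 thus lay above both WT libraries and KO-labelled library 2 below both. The KO-labelled mean was 11421 ± 2906 CPM and the WT mean 10772 ± 412.9 CPM (SD, n = 2 each), a difference smaller than the KO-labelled spread. In bulk RNA, fewer cells of a type and less RNA per cell cannot be told apart.

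Both subunits showed the same order of libraries. Large-subunit members summed to 8165 and 5724.7 CPM in the KO-labelled libraries and to 6450 and 6717.5 CPM in WT. Small-subunit members summed to 5311.3 and 3641.9 CPM against 4029.9 and 4346.2 CPM. The ratio of large to small stayed between 1.54 and 1.60, at 1.54 and 1.57 in the KO-labelled libraries and 1.60 and 1.55 in WT. The total was also taken without 12 fast skeletal and 7 cardiac muscle genes, Sftpc, Sftpa1, Sftpb, Sftpd and the mitochondrially encoded genes. Any other muscle genes stayed in it. The shares were then 1.5% and 1.05% against 1.2% and 1.27%, in the same order. The part of the muscle transcripts in other genes' levels was not tested.

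**Figure D1:**
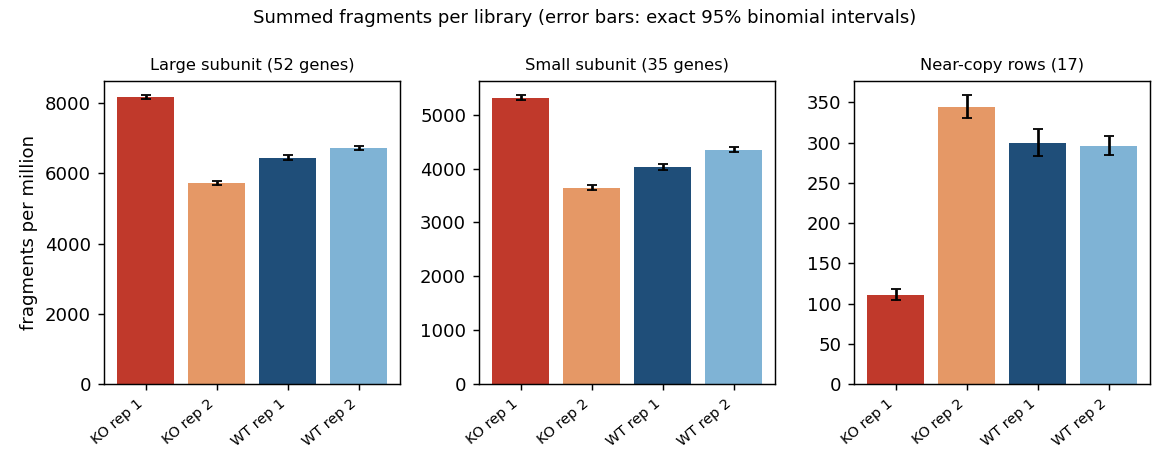
Summed CPM (vertical axes, each from 0) of large-subunit genes, small-subunit genes and near-copy rows in the KO-labelled libraries (red, orange) and the WT libraries (dark and light blue); error bars are exact 95% binomial intervals. In both subunits KO-labelled library 1 is highest and KO-labelled library 2 lowest, whereas near-copy rows are lowest in KO-labelled library 1 (110.65 CPM).

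No member passed the test between the groups. With edgeR's quasi-likelihood test and Benjamini-Hochberg adjustment over all genes tested, 0 of 84 members had an adjusted p under 0.05, as did 0% of all 11952 genes, and the smallest adjusted p was 0.9985 among members and 0.498 among all genes. An unadjusted p under 0.05 was found for 4 members (Rps26, Rps2, Rpl29 and Rpl3l) and for 389 genes in all. Rpl3l reached the mean of 1 CPM only through KO-labelled library 1, with 46 fragments there and 1 in KO-labelled library 2. DESeq2 called 8 genes and 0 members, and limma on log2(FPKM + 1) called 0 of either. The log2 difference, KO-labelled minus WT, was above 0 for 49 members and below 0 for 35, with a median of 0.10 (0.06 for the large and 0.14 for the small subunit) beside 0.03 over all genes tested. By limma on log2(FPKM + 1) the median of members was 0.031 and that of all genes 0.039, so the members did not stand above all genes on that scale.

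The members' most common arrangement was the split between the KO-labelled libraries. For 40 of 84 members (47.6%), KO-labelled library 1 lay above and KO-labelled library 2 below both WT libraries, an order that 16.3% of all genes tested had. The opposite order was found for 5 members (Rpl10, Rpl15, Rpl34, Rpl35a and Rps27l), or 5.95%, against 16.2% of all genes. Both KO-labelled libraries lay above both WT libraries for 9 members (10.7%), against 16.6% of all genes, and below both for 9 members (10.7%), against 16.9%. Among the members above, Rpl3l is counted on 1 fragment in KO-labelled library 2. In either direction, members whose groups did not overlap were thus no more frequent than among all genes. Relative to the WT mean, the median member stood 0.34 higher on the log2 scale in KO-labelled library 1 and 0.22 lower in KO-labelled library 2 (a log2 difference of -0.22); the median of all genes was 0.02 and 0.01. The median log2 gap between the KO-labelled libraries was 0.73, against 0.17 between the WT libraries; over all genes it was 0.43 and 0.18. The gap was wider between the KO-labelled than between the WT libraries for 75 members (89.3%), against 71.9% of all genes tested. A gap of at least 1 log2 unit was found for 22 members between the KO-labelled libraries and for 3 between the WT libraries. How many of all genes had such a gap was not counted.

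**Figure D2:**
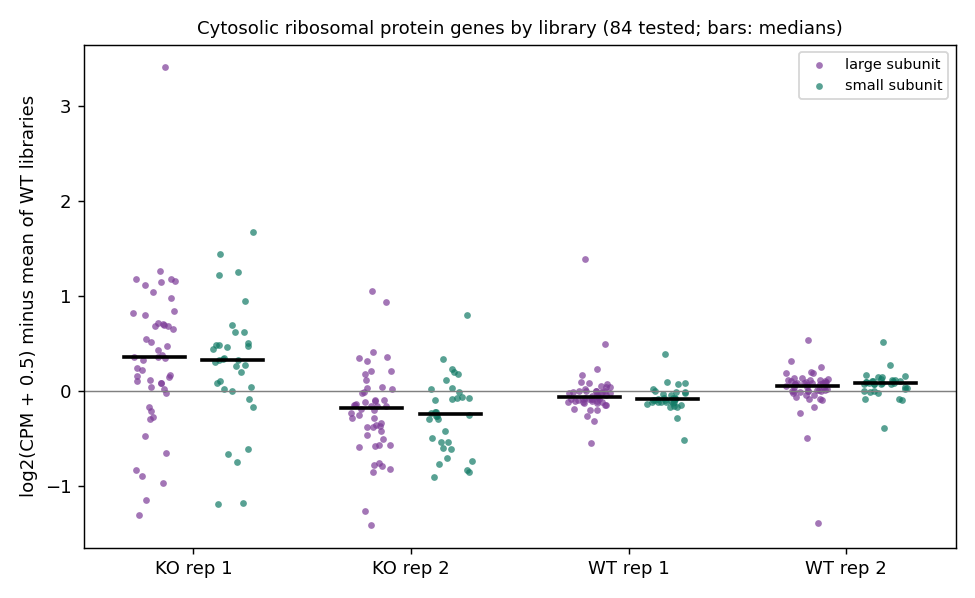
Level of each of the 84 tested members in each library, as log2(CPM + 0.5) minus the mean of the WT libraries (vertical axis); purple points are large-subunit and green points small-subunit genes, and black bars are medians. The points of KO-labelled library 1 centre above 0 and those of KO-labelled library 2 below 0 in both subunits; the highest point is Rpl3l.

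Calls among members depended on which library was left out. Without KO-labelled library 2, edgeR called 43 of 84 members (33 higher, 10 lower) beside 11.9% of all genes. Without KO-labelled library 1, it called 3 members, all lower, among them Rps2 and Rpl28 with an adjusted p of 0.0413 each, beside 0.628% of all genes. Leaving out either WT library gave 0 members. In fits without a KO-labelled library the lone KO-labelled library is assumed to vary like the WT libraries. Members with a higher GC content tended to stand lower in KO-labelled library 2: across the 84 members Spearman's rho between GC content and the difference from the WT mean was -0.39 for KO-labelled library 2 and -0.08 for KO-labelled library 1. Over all genes it was -0.43 and 0.01, so the relation was not particular to the members. These rho values are across genes of the same libraries, which are not independent replicates, and the part of GC content in the members' levels was not tested.

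Members of both subunits were among those with the widest split. Rps28, a short protein near the mRNA exit of the small subunit, stood at 118.0 and 20.4 CPM in the KO-labelled libraries and at 34.8 and 38.5 CPM in WT. Its log2 difference over the groups was 0.92 ± 0.72 (SE), with an edgeR unadjusted p of 0.247. Rps24, a small-subunit protein with a role in processing ribosomal RNA, stood at 427.0 and 128.3 CPM against 140.1 and 176.0 CPM. Both genes were more than 2 times as high in KO-labelled library 1 as in either WT library, and lower than both in KO-labelled library 2. Rpl28, of the large subunit, stood at 207.4 and 50.8 CPM against 88.4 and 96.3 CPM. Rpl36al, a paralogue of Rpl36a, stood at 133.2 and 49.0 CPM against 55.3 and 64.7 CPM. Rps19, a gene tied to Diamond-Blackfan anaemia in humans, stood at 288.5 and 172.6 CPM against 193.7 and 219.3 CPM, the same order with a narrower gap. Rps27a, made as a fusion with ubiquitin, stood at 79.5 and 19.99 CPM against 22.9 and 47.3 CPM, and its WT libraries also lay far apart.

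The members that were low in both KO-labelled libraries included those with the smallest p. Rps26, which lines the mRNA exit channel of the small subunit (ENSMUSG00000025362, chr10:128624534-128626747, minus strand), stood at 37.0 and 47.0 CPM in the KO-labelled libraries and at 78.1 and 92.2 CPM in WT. All values of the KO-labelled group lay below all WT values, with a log2 difference of -1.02 ± 0.22 (SE) and an edgeR unadjusted p of 0.00321, which did not survive adjustment (0.9985). Rps2, of the mRNA entry side (ENSMUSG00000044533, chr17:24718116-24721929, plus strand), stood at 53.9 and 72.0 CPM against 118.9 and 126.5 CPM, a log2 difference of -0.97 ± 0.21 (SE) with an edgeR unadjusted p of 0.00361. Rpl29, a basic large-subunit protein that binds heparin (ENSMUSG00000048758), stood at 33.4 and 49.3 CPM against 70.0 and 78.6 CPM, a log2 difference of -0.85 ± 0.25 (SE). These groups did not overlap either. Rpl27 (large subunit) stood at 39.3 and 39.4 CPM against 51.7 and 57.7 CPM. Rpsa, also known as the laminin receptor precursor, stood at 186.1 and 240.5 CPM against 281.6 and 284.3 CPM. Rps27, a zinc-binding small-subunit protein, stood at 24.7 and 14.6 CPM against 27.6 and 27.8 CPM. Rpl14, Rpl8 and Rplp2 had the same order of groups. Rpl8 was barely below WT, at 252.2 and 240.5 CPM against 253.5 and 258.8 CPM, a log2 difference of -0.06. The row RPL24, which carries the identifier of Rpl24 and is no member by the symbol rule, stood at 30.2 and 23.6 CPM against 45.02 and 41.4 CPM, a log2 difference of -0.68 with an edgeR unadjusted p of 0.0254.

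The members that were high in both KO-labelled libraries included Rpl22 and its paralogue. Rpl22, an RNA-binding protein of the large subunit known for its role in T-cell development, stood at 125.4 and 117.5 CPM in the KO-labelled libraries and at 86.2 and 99.0 CPM in WT, a log2 difference of 0.39 ± 0.18 (SE). Its paralogue Rpl22l1 stood at 11.2 and 18.6 CPM against 7.15 and 10.5 CPM, a log2 difference of 0.74 ± 0.39 (SE). Rpl39, at the wall of the peptide exit tunnel, stood at 115.8 and 61.8 CPM against 48.1 and 58.7 CPM, with KO-labelled library 2 just above the WT range. Rpl7 stood at 498.0 and 444.0 CPM against 360.9 and 406.9 CPM. The edgeR unadjusted p was 0.0711 for Rpl22, 0.107 for Rpl22l1, 0.0644 for Rpl39 and 0.129 for Rpl7, so none passed the test. The row named Rpl24 (Zbtb11 by its identifier), Rps25, Rps3a2, Rps4x and Rpl3l complete this group. Rpl3l belongs to it by only 1 fragment in KO-labelled library 2.

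**Figure D3:**
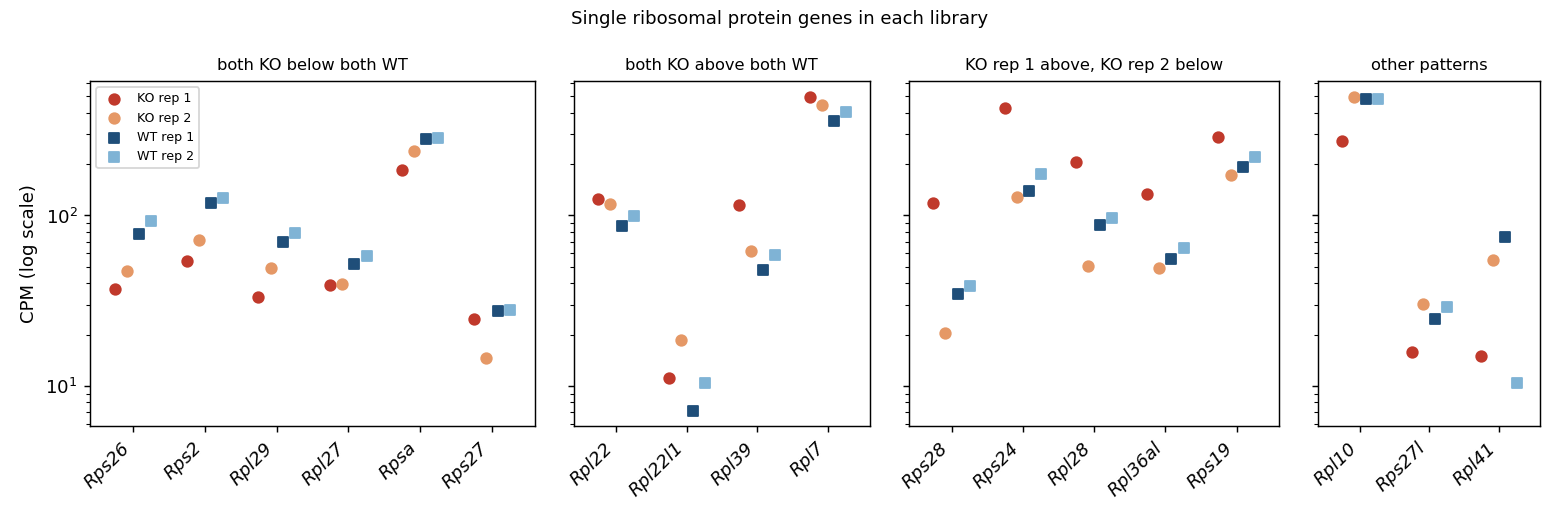
CPM (log axis) of single members in KO-labelled libraries 1 and 2 (red and orange circles) and in WT libraries 1 and 2 (dark and light blue squares), grouped by the order of the libraries. Rps26, Rps2 and Rpl29 lie below the WT values in both KO-labelled libraries, Rpl22 and Rpl22l1 above them, and Rps28, Rps24 and Rpl28 on opposite sides; Rpl41 is split within both groups.

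Among the proteins of the stalk that recruits elongation factors, Rplp0 stood at 545.5 and 454.5 CPM in the KO-labelled libraries and at 501.9 and 508.0 CPM in WT. Rplp1 stood at 161.0 and 95.4 CPM against 151.0 and 134.8 CPM, and Rplp2 at 40.2 and 44.5 CPM against 46.9 and 51.9 CPM. The log2 differences were -0.01, -0.16 and -0.22, each within about 1 SE of 0. Of the proteins that bind Mdm2 with 5S ribosomal RNA, Rpl5 stood at 268.6 and 217.7 CPM against 223.2 and 262.3 CPM, and Rpl11 at 135.8 and 81.8 CPM against 91.7 and 103.8 CPM. Both spanned the WT values. Cdkn1a, a p53 target, stood at 54.0 and 26.1 CPM against 42.6 and 33.0 CPM, and Mdm2 at 39.96 and 51.7 CPM against 45.7 and 48.5 CPM; 0 of the 4 genes of this checkpoint list passed the test.

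Other members with known single roles likewise gave no call. Rps6, the substrate of S6 kinase, stood at 313.3 and 215.8 CPM against 212.3 and 237.5 CPM in WT. Rps3, which also acts in DNA repair, stood at 338.8 and 239.3 CPM against 279.9 and 278.3 CPM. Rpl3, which reaches the peptidyl transferase centre, stood at 551.3 and 389.4 CPM against 346.6 and 410.6 CPM. In each of these genes KO-labelled library 1 was the highest of the 4. Rpl10, which joins the large subunit late in its assembly, had the opposite order, with 272.3 and 494.5 CPM against 485.0 and 486.2 CPM. Rpl41, which encodes a very short peptide, stood at 15.0 and 54.5 CPM against 74.8 and 10.5 CPM, so that each group held a high and a low library.

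Per length, most paralogues lay below their relatives, with Rpl36al as an exception. Rpl22l1 averaged 38.9 FPKM in the KO-labelled and 23.7 FPKM in the WT libraries, where Rpl22 had 172.9 and 143.6 FPKM. Rpl7l1 averaged 18.0 and 19.6 FPKM, where Rpl7 had 480.6 and 336.9 FPKM, and Rps27l averaged 57.6 and 67.8 FPKM, where Rps27 had 162.5 and 288.4 FPKM. The Rps27 values imply a length of only 189 and 74 bases in the KO-labelled libraries and 92 and 100 bases in WT. Its coding sequence has 252 bases. By CPM Rps27 stood at 24.7 and 14.6 against 27.6 and 27.8. On that scale Rps27l lay above Rps27 in KO-labelled library 2 and WT library 2 and below it in the others. Rpl36al averaged 187.4 and 141.0 FPKM, above the 111.9 and 82.1 FPKM of Rpl36a. Rpl3l, the striated-muscle paralogue of Rpl3, had 46 fragments in KO-labelled library 1 and 1 in KO-labelled library 2, against 0 in both WT libraries. Over the groups this is 2.84 CPM against a limit of 0.243 CPM (3 fragments over both WT libraries), at least 11.7-fold higher in the KO-labelled group, and 1 library carries it. The same library held the 1734.5 CPM of fast skeletal muscle transcripts given above, of whose 12 genes all 12 were detected there; their part in Rpl3l was not tested. Rps27l, a p53-responsive paralogue of Rps27, stood at 15.8 and 30.4 CPM against 24.8 and 28.9 CPM, and Rpl7l1 at 49.9 and 56.7 CPM against 59.3 and 56.0 CPM. Neither was separated between the groups.

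Ribosomal protein genes have many processed copies in the genome, and fragments may be split between a gene and its copy. Of the members, 13 share over 50% of their sampled 100-base stretches with transcripts of another gene, and 16 share at most 5%. The table held 17 further rows whose transcripts are mostly the sequence of a member (near-copies), for 14 members. Their sum was 110.65 CPM in KO-labelled library 1 and 344.59 CPM in KO-labelled library 2, against 299.49 and 296.21 CPM in WT. In KO-labelled library 1, 16 of 17 copies lay below both WT libraries, which 39% of all genes tested did. The 17 include Gm10020, Gm10132, Gm10335 and Rpl10-ps3, with 0, 2, 1 and 2 fragments in that library. These rows were too low to be tested, so their order rests on very few fragments. Of the 14 members that have copies, 8 lay above both WT libraries there and 6 (Rpl10, Rpl15, Rpl27, Rps2, Rps27 and Rpsa) below both. Of all 84 members tested, 61 (72.6%) lay above both, against 40.4% of all genes. The exception among the copies was Rpl23a-ps3. The sources used here do not say how fragments matching several places were handled.

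**Figure D4:**
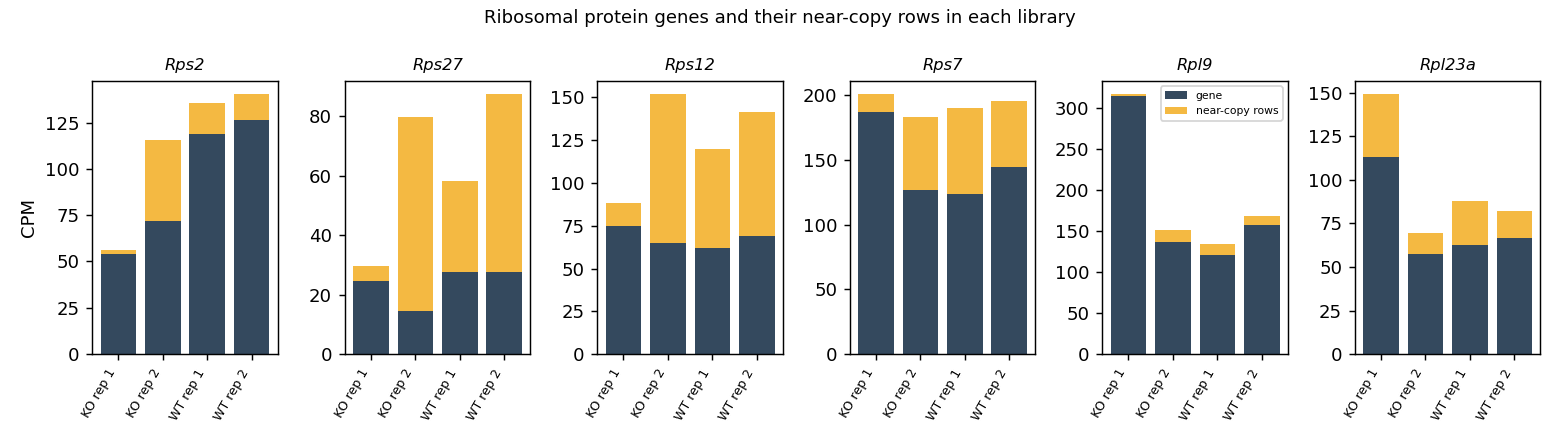
CPM (vertical axes, each from 0) of 6 members (dark) with their near-copy rows stacked on top (yellow), in the KO-labelled libraries and then the WT libraries. The yellow part is small in KO-labelled library 1 for Rps2, Rps27, Rps12, Rps7 and Rpl9, and for Rpl23a it is largest there.

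Adding the copies altered single members more than the whole set. Rps2-ps10 stood at 2.51 and 43.8 CPM in the KO-labelled libraries and 16.4 and 13.9 CPM in WT. With it added, Rps2 stood at 56.4 and 115.8 CPM against 135.3 and 140.4 CPM, and its log2 difference was -0.69 where the gene alone had -0.97. Rps12-ps3 stood at 13.0 and 86.8 CPM against 57.7 and 72.7 CPM; adding it turned the log2 difference of Rps12 to -0.13, where the gene alone had 0.10. The copies of Rps7 turned its difference to -0.02, where the gene alone had 0.23. Gm9846, annotated as Rps27rt, stood at 5.13 and 65.1 CPM against 30.7 and 59.8 CPM, and Rps27 with it stood at 29.8 and 79.7 CPM against 58.4 and 87.6 CPM, so that the groups overlapped. Rpsa, with a copy of few fragments, had a log2 difference of -0.42 with it and -0.41 alone. With members and copies summed, the shares were 1.36% and 0.971% against 1.08% and 1.14%, in the order described above.

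Compared per length, in FPKM, most members were abundant. In KO-labelled libraries 1 and 2, 62 and 61 of the 87 members reached 100 FPKM, against 66 and 68 in WT, and the median level was 187 and 139 FPKM against 158 and 169 FPKM. Rpl10 ranked highest in 3 of the 4 libraries, with 386.1 and 750.0 FPKM in KO-labelled libraries 1 and 2 and 659.0 and 643.5 FPKM in WT. In KO-labelled library 1 the highest was Rps24, with 616.3 FPKM there and 341.4 FPKM in KO-labelled library 2, against 306.6 and 373.7 FPKM in WT. Rpl7 had 569.9 and 391.3 FPKM against 325.5 and 348.2 FPKM. Rps26 ranked 66 and 38 by FPKM in the KO-labelled libraries and 22 and 19 in WT. Rplp0 averaged 431.4 FPKM in the KO-labelled and 416.0 FPKM in the WT libraries. Its neighbours in the order of WT means were Rps15, which lay above it in both WT libraries (440.9 and 473.4 FPKM, against 410.4 and 421.6 FPKM for Rplp0), and Rps14, whose WT values (441.3 and 380.5 FPKM) lay on either side of it. The order of members was most alike between the WT libraries (Spearman's rho of FPKM 0.943 over 87 genes). KO-labelled library 2 was close to it, with 0.929 and 0.924 to the WT libraries. KO-labelled library 1 had 0.805 and 0.844 to the WT libraries and 0.8 to KO-labelled library 2. Over the 11952 genes tested the same values for KO-labelled library 1 were 0.936, 0.942 and 0.915. There KO-labelled library 2 had 0.947 and 0.955 to the WT libraries, which had 0.975 between them. The members and all genes differ in number and in range of levels, so their rho values are not directly comparable.

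**Figure D5:**
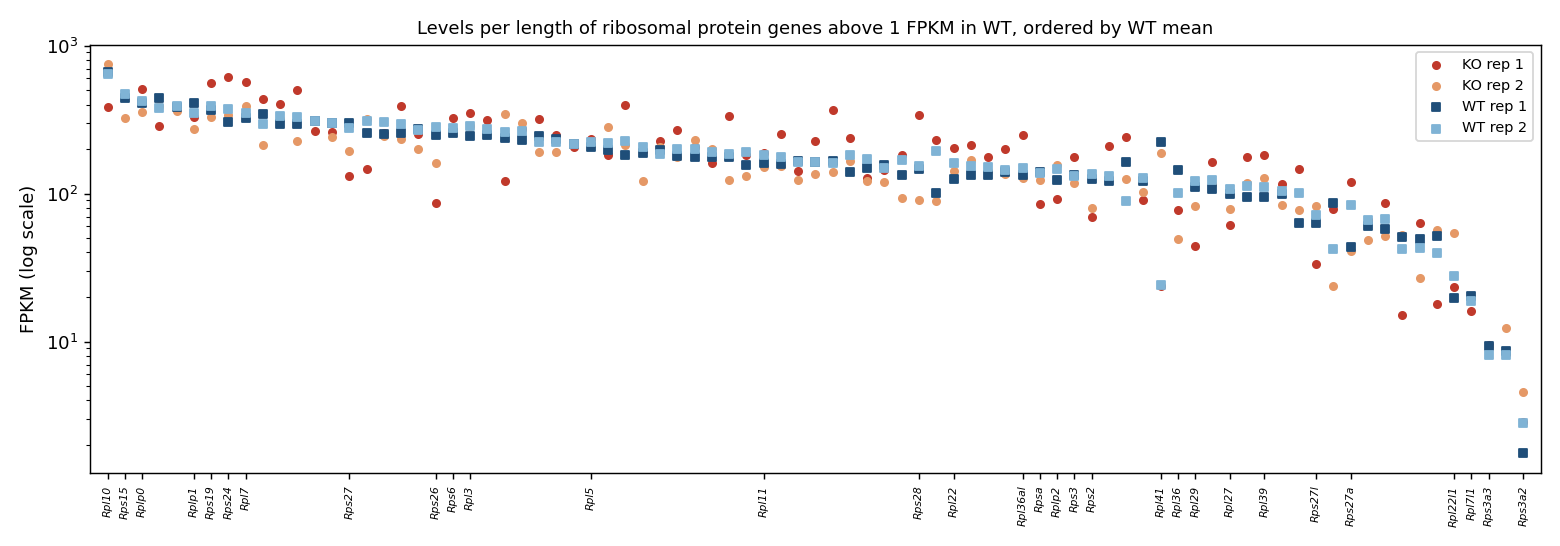
FPKM (log axis) of members with a WT mean above 1 FPKM, ordered from left to right by WT mean and named where they have a set role or an extreme value, in the KO-labelled libraries (red and orange circles) and the WT libraries (blue squares). Red points scatter widest around the WT order, from Rps24 (616.3 FPKM) far above it to Rps26 (86.6 FPKM) far below it.

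The FPKM values were not a fixed multiple of the fragments. The length that a member's FPKM implies (its CPM divided by its FPKM, times 1000) differed over 1.2-fold between libraries for 70 of 83 members (84.3%), against 47.7% of all genes. It was longest in KO-labelled library 1 for 69 of 83 members (83.1%), against 60.3% of all genes. The members are short (median coding length 462 bases), and the genes they are set against were not matched for length. The part of length in these shares was not tested. For Rps24 it was 697 and 373 bases in the KO-labelled libraries and 460 and 467 bases in WT. The log2 difference had another sign by FPKM than by fragments for 11 members, among them Rpl11, Rplp0 and Rps12. For Rps28 the log2 difference was 0.21 by log2(FPKM + 1), where fragments gave 0.92.

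Other genes of the pathway did not all share the members' pattern. Of 20 other mRNAs known to carry a TOP sequence, 12 (60%, against 16.3% of all genes) lay above both WT libraries in KO-labelled library 1 and below both in KO-labelled library 2, and 0 were called. Eef1a1, the elongation factor that delivers tRNA, stood at 6616 and 3906 CPM against 4427 and 4865 CPM, and Fau at 229.8 and 80.9 CPM against 102.2 and 107.8 CPM. Gnb2l1 stood at 379.5 and 253.0 CPM against 285.2 and 314.4 CPM. Among the 76 mitochondrial ribosomal proteins, 16 (21.1%) had that order, and their sum was 1092.8 and 959.61 CPM against 974.29 and 1024.1 CPM. Of 63 genes of ribosome assembly, 15 (23.8%) had it, against 16.3% of all genes, and 0 were called. In both KO-labelled libraries, 18 of them (28.6%) lay above both WT libraries, against 16.6% of all genes, and 6 (9.52%) below both, against 16.9%. Ncl, encoding nucleolin, stood at 415.4 and 292.2 CPM against 225.8 and 245.6 CPM. Of 15 genes of RNA polymerase I and its factors, 5 had the split order, of 6 chaperones dedicated to ribosomal proteins 0 had it, and none of either list was called.

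Members were also set side by side by the length of the longest C/T run around their annotated start, as a description. The run need not lie at the start: that of Rpl39 begins 20 bases before it and that of Rpl11 13 bases after it. The split is thus not one of mRNAs with and without a TOP sequence. The 34 tested members with a run of at least 8 bases had a median log2 difference from WT of 0.36 in KO-labelled library 1 and -0.25 in KO-labelled library 2. The 27 with a shorter run had 0.33 and -0.15. Of those with a run of at least 8 bases, 15 had the split order of libraries, and 14 of those with a shorter run did. Rps26, low in both KO-labelled libraries, and Rps24, split between them, each have a run of 9 bases in the lines above.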

How the data were processed

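RNA was depleted of ribosomal RNA and made into stranded libraries, per the labels' protocols; tools listed in the submitters' processing notes are HISAT2 2.0.4, cutadapt 1.9.3, Cufflinks and Cuffdiff 2.2.1, with build mm10; the sources used here do not state their settings. The authors deposited FPKM and estimated counts per gene, per the file headers. Each library's deposited counts are multiples of 1 constant; dividing by it made 90.9% to 92.5% of positive values whole within 0.05, and these fragments, rounded, were tested. CPM is scaled by TMM; sums use the plain totals. Genes with a mean of at least 1 CPM entered edgeR 4.0.16 (quasi-likelihood test, R 4.3.3), KO-labelled minus WT, threshold 0.05 adjusted. Its SE is the log2 difference divided by the root of the F statistic. DESeq2 1.42.0, limma 3.58.1 on log2(FPKM + 1) and log2(FPKM + 0.1), other scalings and filters, a replicate block and leaving out each library were alternatives. Tested on simulated data (11952 genes, dispersion 0.0814, the same for all), edgeR called 6% of genes changed 2-fold and 82% of those changed 4-fold. Coordinates and shared sequence (1 in 4 stretches of 100 bases) are from GENCODE M21 (GRCm38). Members and lists were chosen with earlier results of these data known. Members named were those with set roles, paralogues, the 5 largest differences and 4 smallest p in each direction and the 3 highest and lowest FPKM per subunit; any others were chosen after their values were seen. Results for 2 genes are not reported here.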

Additional observations from a re-analysis of the deposited data

How the results depend on the processing

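Leaving out 1 library gave between 1 and 1428 genes called, where all 4 libraries gave 0, and between 0 and 43 members. The median log2 difference of members then ran from -0.228 to 0.329 (large subunit -0.209 to 0.332, small subunit -0.258 to 0.326), and the log2 ratio of the summed share, 0.084 with all libraries, from -0.202 to 0.323. The lowest values came without KO-labelled library 1 and the highest without KO-labelled library 2. DESeq2 called 8 genes, and edgeR without a filter on low counts called 5; neither called a member. The replicate numbers are not shown to pair the libraries: same-numbered libraries' deviations correlated at 0.011, over 2 pairs. With the replicate block 1 gene and 0 members were called, and the median was 0.080 (large subunit -0.002, small subunit 0.112). Other scalings, filters and FPKM fits called 0 members, with medians between 0.031 and 0.103; the lowest, 0.031, came from the FPKM fits, where all genes had 0.039 and 0.040. Adding near-copies and taking the RPL24 row for Rpl24, both chosen after seeing the data, called 0 members, with medians of 0.051 and 0.086. The shallowest library, WT library 1, limits low members.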
